A study of Homo sapiens with 12 samples.

Results

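The genes described here are the serpins, a family of serine protease inhibitors, together with the plasminogen activators PLAU and PLAT, the urokinase receptor PLAUR and the secretory leukocyte protease inhibitor SLPI. They were taken by symbol: genes named SERPIN followed by a clade letter from A to I and a number, and the 4 other genes by name. The 38 genes described (34 serpins and the 4 others) are among the 60623 genes in the deposited count table. The rule used no measured value, though the group was proposed with earlier results of these data known. The serpins AGT, whose symbol does not follow the pattern, and 7 serpin pseudogene symbols were outside it.

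All RNA came from A549, a human lung adenocarcinoma cell line, infected with a lentivirus (pLV-EF1a-IRES-Hygro, in which the EF1a promoter drives the insert) and selected with hygromycin. The V line carried the empty vector, the WT line wild-type AHR with an HA tag, the SA line HA-AHR with the S489A substitution and the SD line HA-AHR with the S489D substitution. S489 is the serine that the study examined as a site of phosphorylation by the kinase PLK1; alanine cannot be phosphorylated and aspartate carries a negative charge in its place. Each line gave 3 libraries of poly(A) RNA, called biological replicates in the labels, and each construct was represented by 1 stable line that also kept its own AHR gene. Construct and line therefore cannot be told apart, and p-values measure the spread between the libraries of a line.

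Serpins present a flexible loop that a protease cleaves as if it were a substrate. The serpin then changes shape and traps the protease in a covalent complex, so that both are used up. A few members, such as the collagen chaperone SERPINH1, have lost this function. In the plasminogen system, PLAU (urokinase) and PLAT (tissue-type activator) cut plasminogen to plasmin, which degrades fibrin and matrix. PLAUR holds urokinase at the cell surface, several serpins inhibit the activators, and SERPINF2 inhibits plasmin itself. AHR is a ligand-activated transcription factor that, with its partner ARNT, binds DNA at response elements with the core GCGTG.

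Levels are given as CPM, counts per 1000000 counts of a library with library sizes normalised by the TMM method, each with its standard deviation over 3 libraries. The libraries held between 7844045 and 11765576 counts, and 3 counts in a library, the number that an observed 0 allows, corresponded to between 0.255 and 0.3825 CPM. Intervals and limits of this kind cover counting error only. AHR, the check of the labels, was at 69.1 ± 4.51 CPM in V (SD, n = 3) and 266 ± 28.3, 223 ± 5.89 and 210 ± 9.14 CPM in WT, SA and SD, and reads of the transgene were not separated from those of the resident gene. It was above V in all 3 lines (edgeR, adjusted p = 1.7e-18 in WT, 9.4e-18 in SA and 5.9e-16 in SD) and was lower in SD than in WT (log2 fold change −0.35, adjusted p = 0.00774). Of the A549 and epithelial markers, KRT8, KRT18, KRT7, ALDH1A1 and AKR1B10 averaged at least 1066 CPM in every line, whereas KRT19 was below 1 CPM and EPCAM near it. The summed level of the 9 markers ran from 13322 to 13516 CPM in V and from 10651 to 11218 CPM over the 3 AHR lines. Between 4 and 6 of the 8 tested markers were lower in each AHR line than in V, KRT8, KRT18, CDH1 and ALDH1A1 among them, where 2.93%, 3.29% and 2.49% of all genes tested were lower in WT, SA and SD. The part of this shift in the results below was not tested. CD3E, VWF and DCN, which mark T cells, endothelium and fibroblasts, had no count. The summed level of 8 markers of leukocytes, endothelium and fibroblasts was 20.2 to 31.7 CPM, nearly all of it COL1A1 and CD14, the 2 of them that were tested. COL1A1 fell from 11.4 CPM in V to 6.55 in WT and 7.51 in SA (edgeR, adjusted p = 0.00649 and 0.0278), and CD14 rose from 12.3 CPM in V to 18.5 in SD (adjusted p = 0.00946). The part of these shifts in the results was not tested.

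The promoters of 4 members that differed from V are shown because AHR was the gene introduced. They are the 300 bases from 250 before to 50 after the start site, read 5′ to 3′ on the gene's strand from RefSeq on GRCh38.p14. Capitals mark each match to GCGTG on either strand (CACGC when read on the strand shown). The windows are chr2:224038591-224038890 on the minus strand for SERPINE2, chr3:167735471-167735770 on the plus strand for SERPINI1, chr10:73910882-73911181 on the plus strand for PLAU and chr6:2903260-2903559 on the minus strand for SERPINB9.
SERPINE2: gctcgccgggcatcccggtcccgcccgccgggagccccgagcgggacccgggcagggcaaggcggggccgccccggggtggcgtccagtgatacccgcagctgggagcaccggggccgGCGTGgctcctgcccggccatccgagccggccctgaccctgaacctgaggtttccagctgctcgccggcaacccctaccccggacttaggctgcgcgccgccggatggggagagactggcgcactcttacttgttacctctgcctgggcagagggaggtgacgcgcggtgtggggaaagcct
SERPINI1: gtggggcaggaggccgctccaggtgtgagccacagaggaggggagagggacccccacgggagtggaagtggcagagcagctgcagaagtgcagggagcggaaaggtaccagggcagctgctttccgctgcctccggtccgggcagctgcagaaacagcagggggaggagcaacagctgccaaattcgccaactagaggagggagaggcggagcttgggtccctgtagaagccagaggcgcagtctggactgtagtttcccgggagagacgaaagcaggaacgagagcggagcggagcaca
PLAU: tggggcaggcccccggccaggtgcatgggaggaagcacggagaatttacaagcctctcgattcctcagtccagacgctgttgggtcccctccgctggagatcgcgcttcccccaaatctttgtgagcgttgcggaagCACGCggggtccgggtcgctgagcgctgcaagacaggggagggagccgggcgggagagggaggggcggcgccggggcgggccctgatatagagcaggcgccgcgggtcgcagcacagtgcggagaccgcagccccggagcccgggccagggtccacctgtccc
SERPINB9: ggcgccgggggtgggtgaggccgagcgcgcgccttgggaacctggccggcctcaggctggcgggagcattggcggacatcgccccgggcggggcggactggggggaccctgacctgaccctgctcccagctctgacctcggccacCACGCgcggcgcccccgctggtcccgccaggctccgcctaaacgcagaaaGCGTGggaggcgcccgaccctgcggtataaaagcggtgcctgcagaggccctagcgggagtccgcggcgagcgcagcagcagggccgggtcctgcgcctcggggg

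Of the 2 windows listed for SERPINE2 and for PLAU, the one with the higher coordinates is shown, and the other held no match. The SERPINE2 window held 1 match, beginning at position −132 from the start site, and the PLAU window 1 at −113. The SERPINB9 window held 2, at −105 and −55, and the SERPINI1 window none. The windows shown for SERPINE2, SERPINI1 and PLAU lie inside the deposited spans of these genes, so bases before the deposited starts are not covered. Windows of SERPINB1 and SERPINH1, which also differed from V, are not shown. That of SERPINB1 held 2 matches, as did 1 of the 2 of SERPINH1, and the other held none. RefSeq promoters were matched to 29 of the 38 members, and 14 of their 44 promoters (31.8%) held the core, against 36.5% of 35116 promoters of all genes. Among genes tested in the comparison of SD with V the share was 48.6% of 15291 promoters, and among tested members 10 of 15 (66.7%). These 15 promoters belong to 9 genes, and those of SERPINB6, all with the core, partly cover the same bases. The difference between the shares was not tested. No entry was matched for PLAT, SLPI, SERPINF1, SERPINF2, SERPINC1, SERPING1, SERPINA2, SERPINB10 or SERPINB11. A match describes the letters of the window and is not a bound site.

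Which members A549 cells expressed differed widely. No count was found in any of the 12 libraries for 12 members (SERPINA2, SERPINA4, SERPINA7, SERPINA9, SERPINA11, SERPINA12, SERPINB5, SERPINB10, SERPINB12, SERPINB13, SERPIND1 and SERPINI2). Of the 26 with a count, 13 passed the filter on low counts and were tested in all 6 comparisons. The other 13 had between 1 and 81 counts over the 12 libraries together. The location of the silent members was uneven. Chromosome 14 (94280460 to 94624055, GRCh38) carried 10 members of clade A, none of which passed the filter and 5 of which had no count. Chromosome 18 (63476958 to 64019779) carried 10 members of clade B, of which SERPINB8 alone passed. The 3 clade B genes on chromosome 6 (2832332 to 2972165), SERPINB1, SERPINB6 and SERPINB9, were all expressed.

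Per kilobase of exon, the highest mean level over the 12 libraries belonged to PLAU at 47.8 CPM per kb, followed by SERPINH1 at 29.8. SERPINB1 was at 15.1 CPM per kb, SERPINB9 at 12.004, PLAUR at 9.71, SERPINE2 at 9.66, SERPINB6 at 6.81 and SLPI at 6.07. The other 5 tested members lay between 0.541 (PLAT) and 1.497 CPM per kb (SERPINI1). The activator PLAU thus ranked first on this measure, which divides by the combined length of all annotated exons of a gene. That length was 2949 bases for PLAU and 6281 for SERPINH1, and the lengths of the transcripts present were not used. By CPM alone SERPINH1 was higher, at 187 against 141 for PLAU. The substrate of PLAU, plasminogen (PLG), had a mean of 0.18 CPM, or 0.02 CPM per kb.

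**Figure D1:**
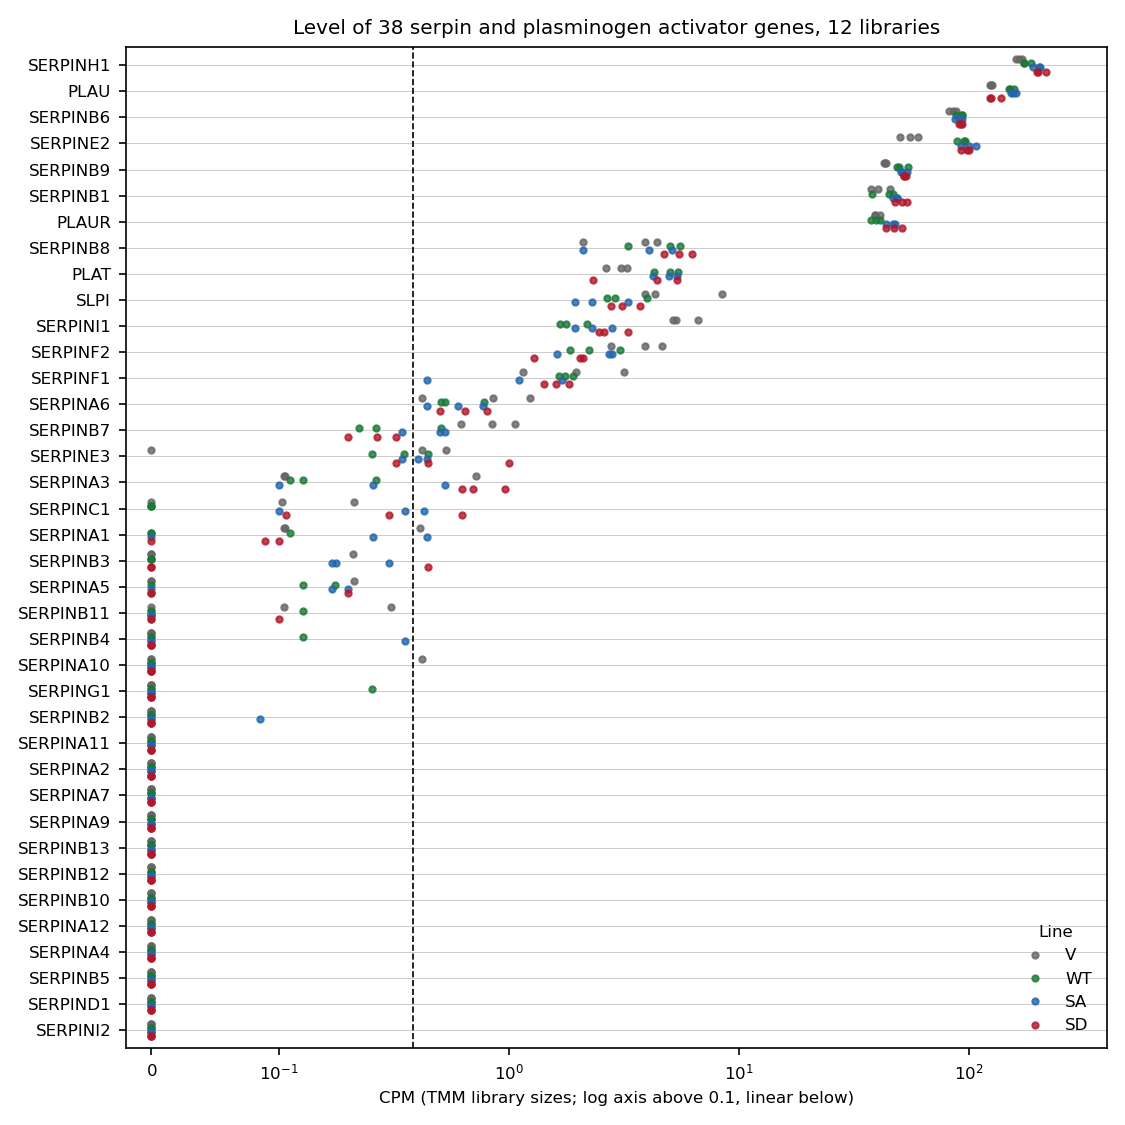
Level of each of the 38 members in the 12 libraries, in CPM on a horizontal axis that is logarithmic above 0.1 and linear below, with one point per library coloured by line. The dashed line marks the CPM of 3 counts in the shallowest library (0.3825), and 13 members, from SERPINH1 to SERPINF1, make up the tested set.

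A gene counted as changed when the quasi-likelihood test of edgeR gave a p under 0.05 after Benjamini-Hochberg adjustment over all genes tested. In WT against V, 3 of the 13 tested members changed, 2 higher and 1 lower, where 5.24% of the 14772 genes tested did (2.31% higher and 2.93% lower). In SA against V, 6 changed, 4 higher and 2 lower, where 7.17% of 14913 genes did (3.88% higher and 3.29% lower). In SD against V, 5 changed, 4 higher and 1 lower, where 5.41% of 14890 genes did (2.92% higher and 2.49% lower). The median log2 fold change of the 13 was 0.10, 0.21 and 0.26 in these comparisons, beside medians within 0.01 of 0 over all genes. The libraries of the 2 lines compared did not overlap for 21.9%, 23.8% and 21.4% of all genes tested in WT, SA and SD against V. In SD against WT, SD against SA and WT against SA the share was 16%, 13.6% and 12.8%. Members described below as not overlapping are to be read beside these shares. The 3 comparisons with V share the V libraries and are not independent of one another. With SD replicate 2 left out the count in SD against V was 2, and without SD replicate 3 or any 1 of the V libraries it was 3. The 13 members passed a filter on level, so these counts describe the expressed members and not the family. In cultures, fewer cells expressing a gene and less RNA per cell cannot be told apart.

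**Figure D2:**
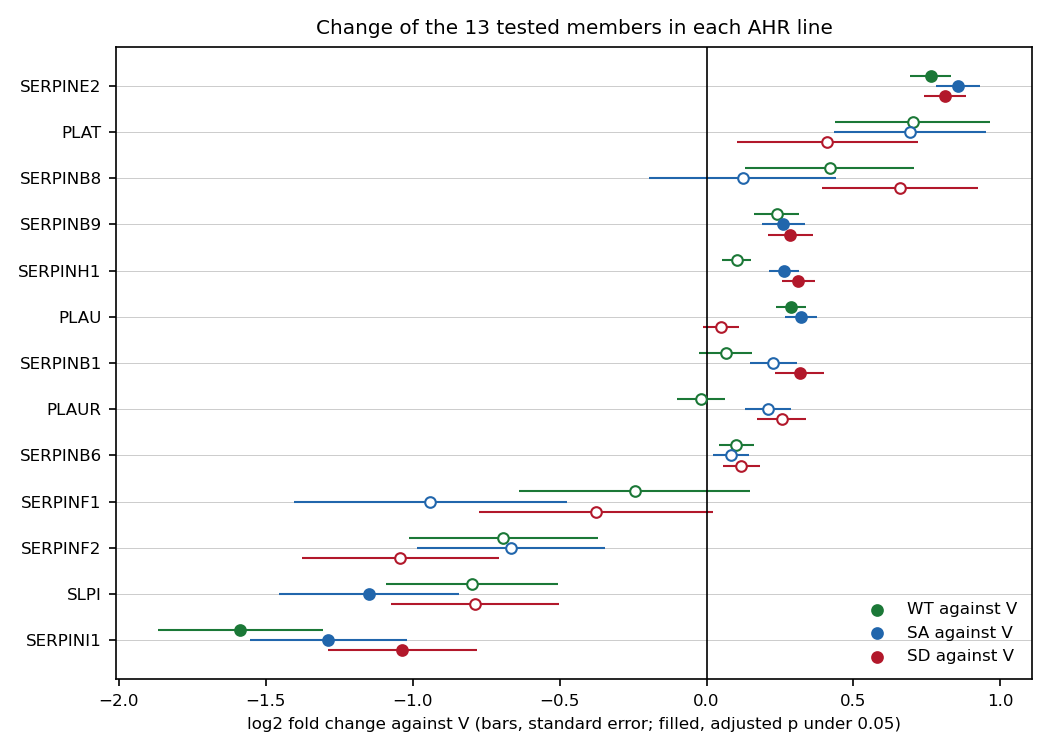
Log2 fold change of the 13 tested members in WT, SA and SD against V, with bars of 1 standard error and filled symbols where the adjusted p was under 0.05. SERPINE2 lies between 0.76 and 0.86 in the 3 lines and SERPINI1 between −1.59 and −1.03.

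Among the activators and their receptor, PLAU was higher than V in WT and SA and close to V in SD. Its level was 125, 126 and 124 CPM in the V libraries, 157, 151 and 150 in WT, 161, 153 and 155 in SA, and 138, 124 and 125 in SD. All WT and SA libraries lay above every V library, and those of SD overlapped V. PLAU (chr10:73909177-73917496, plus strand) rose 1.22-fold in WT (log2 fold change 0.29 ± 0.05 SE, adjusted p = 0.000373) and 1.25-fold in SA (0.32 ± 0.05, adjusted p = 0.000187). In SD its log2 fold change was 0.05 ± 0.06 (adjusted p = 0.749, edgeR). The antisense gene C10orf55 overlaps PLAU, and strand use in counting is not given in the sources used here. C10orf55 was listed at 2.72 to 3.06 CPM on average in the 4 lines, and its part in the PLAU counts was not tested.

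PLAT did not pass the test. It was at 3.00 ± 0.313 CPM in V (SD, n = 3) and 4.92 ± 0.586, 4.87 ± 0.590 and 4.03 ± 1.56 CPM in WT, SA and SD. The libraries of WT and SA did not overlap those of V, and the log2 fold changes were 0.70 ± 0.26 in WT (edgeR, adjusted p = 0.135), 0.69 ± 0.26 in SA (adjusted p = 0.110) and 0.41 ± 0.31 in SD (adjusted p = 0.549). PLAUR was at 39.9 ± 1.01 CPM in V and 39.5 ± 1.71, 46.1 ± 2.19 and 47.6 ± 3.76 CPM in WT, SA and SD. Its SA and SD libraries, from 43.7 to 51.4 CPM, lay above all those of V and WT, from 37.6 to 41.0 CPM. Against V the log2 fold change of PLAUR was −0.02 ± 0.08 in WT, 0.21 ± 0.08 in SA (edgeR, adjusted p = 0.105) and 0.26 ± 0.08 in SD (adjusted p = 0.0712).

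The extracellular inhibitors divided. SERPINE2 (protease nexin-1), which inhibits thrombin, urokinase and plasmin at cell surfaces, was higher in all AHR lines. It was at 55.5, 50.3 and 60.1 CPM in the V libraries, 89.1, 96.6 and 95.5 in WT, 108, 101 and 92.3 in SA, and 100, 92.5 and 98.0 in SD. Every AHR library exceeded every V library, and the 3 AHR lines overlapped one another. SERPINE2 (chr2:223975045-224039318, minus strand) rose 1.70-fold in WT (log2 fold change 0.76 ± 0.07 SE, adjusted p = 1e-08), 1.81-fold in SA (0.86 ± 0.07, adjusted p = 5.7e-09) and 1.75-fold in SD (0.81 ± 0.07, adjusted p = 2e-08).

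SERPINI1 (neuroserpin), an inhibitor of PLAT best known from neurons, was lower in all AHR lines. Its level was 5.35, 5.20 and 6.63 CPM in the V libraries, 1.78, 2.19 and 1.67 in WT, 2.81, 2.31 and 1.94 in SA, and 3.30, 2.47 and 2.58 in SD. All V libraries lay above every other library. The 12 libraries held 380 counts of SERPINI1 in all, so its precision was low. SERPINI1 (chr3:167735243-167825568, plus strand) was 3.00-fold lower in WT (log2 fold change −1.59 ± 0.28, edgeR adjusted p = 0.000423), 2.44-fold lower in SA (−1.29 ± 0.27, adjusted p = 0.00227) and 2.05-fold lower in SD (−1.03 ± 0.25, adjusted p = 0.0132). The call in SD was lost without V replicate 3 (adjusted p = 0.0982) and without SD replicate 2 (adjusted p = 0.0717). PDCD10, which by the deposited coordinates starts 303 bases from SERPINI1 on the opposite strand (chr3:167683298-167734939), was examined after these values were seen. It was at 22.9 ± 1.16 CPM in V and 23.7 ± 1.43, 24.2 ± 0.789 and 20.8 ± 2.21 CPM in WT, SA and SD, and its log2 fold changes against V of 0.06 ± 0.10, 0.08 ± 0.10 and −0.14 ± 0.11 did not pass the test (edgeR, adjusted p = 0.847, 0.716 and 0.587).

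SERPINF2 (α2-antiplasmin) was at 3.78 ± 0.935 CPM in V and 2.37 ± 0.616, 2.39 ± 0.664 and 1.81 ± 0.456 CPM in WT, SA and SD. Its SD libraries lay below those of V, with a log2 fold change of −1.04 ± 0.33 that did not pass the test (edgeR, adjusted p = 0.0706). Of these extracellular inhibitors, SERPINE2 rose and SERPINI1 fell.

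**Figure D3:**
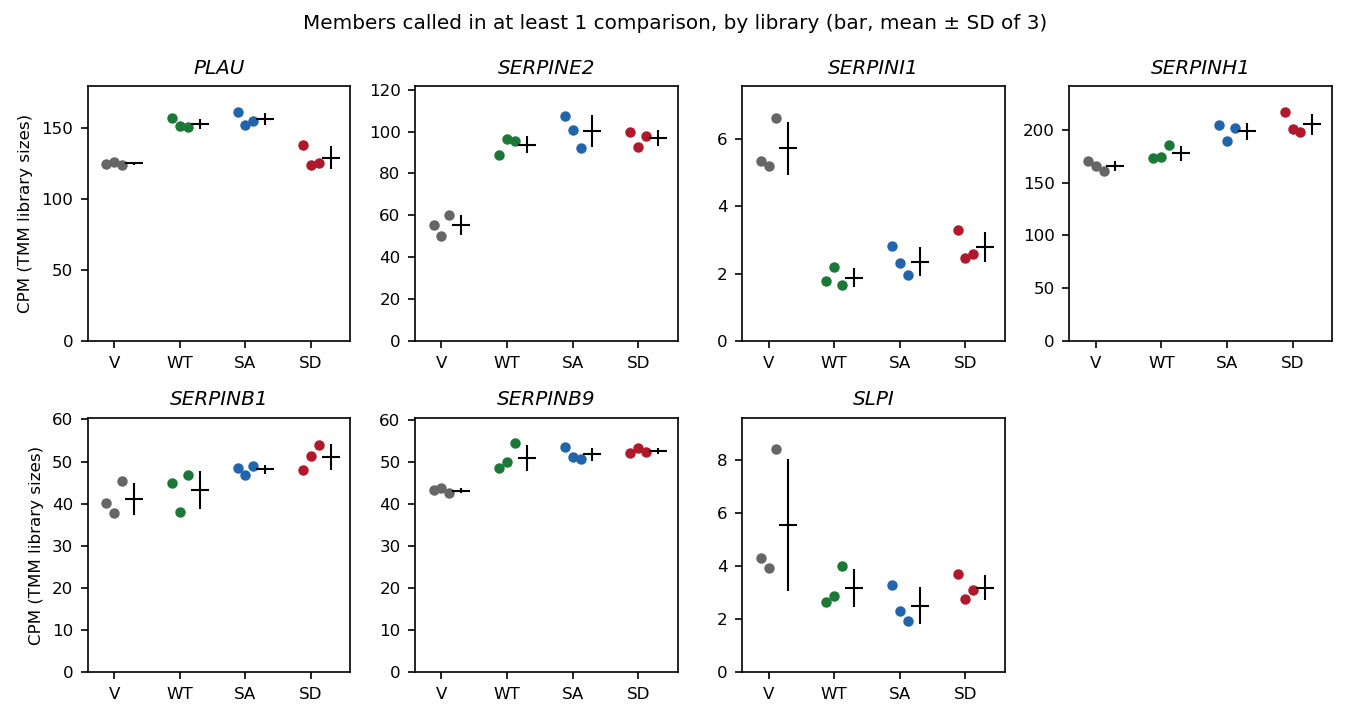
Level in CPM of the 7 members that changed in at least 1 comparison, with one point per library and a bar for the mean ± SD of the 3 libraries of each line. The V libraries of SERPINE2 (50.3 to 60.1 CPM) lie below all others and those of SERPINI1 (5.20 to 6.63 CPM) above all others, and 1 V library of SLPI stands at 8.42 CPM.

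SERPINH1 (HSP47), the collagen chaperone of the endoplasmic reticulum, which is not an inhibitor, was higher in both mutant lines. It was at 170, 166 and 161 CPM in the V libraries, 174, 174 and 186 in WT, 205, 190 and 202 in SA, and 217, 201 and 198 in SD. All libraries of AHR lines exceeded those of V, and those of SA and SD exceeded those of WT. SERPINH1 (chr11:75562056-75572783, plus strand) rose 1.20-fold in SA (log2 fold change 0.26 ± 0.05, adjusted p = 0.00156) and 1.24-fold in SD (0.31 ± 0.06, adjusted p = 0.00075). In WT its log2 fold change was 0.10 ± 0.05 (edgeR, adjusted p = 0.287). SERPINF1 (pigment epithelium-derived factor), the other tested serpin that is not an inhibitor, was at 1.77 to 2.10 CPM on average in V and WT and at 1.08 and 1.62 in SA and SD, and did not pass the test in any comparison.

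The clade B serpins act inside the cell against stray proteases. SERPINB9, the inhibitor of granzyme B, was at 43.3, 43.8 and 42.7 CPM in the V libraries, 48.7, 50.0 and 54.6 in WT, 53.7, 51.2 and 50.8 in SA, and 52.1, 53.4 and 52.5 in SD. Every AHR library exceeded every V library by a small margin. SERPINB9 (chr6:2887270-2903309, minus strand) had log2 fold changes of 0.24 ± 0.08 in WT (edgeR, adjusted p = 0.0694), 0.26 ± 0.07 in SA (adjusted p = 0.0279) and 0.29 ± 0.08 in SD (adjusted p = 0.0224), and thus passed in both mutant lines. Without any 1 of the 6 libraries of SA and V its adjusted p in SA was between 0.0535 and 0.0955, and under DESeq2 it was 0.066. In SD against V the call was likewise lost without V replicate 1, 2 or 3 (adjusted p = 0.0876, 0.0616 and 0.0877) and without SD replicate 2 or 3 (0.0854 and 0.0510), and it was lost under DESeq2 (0.0554).

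SERPINB1, an inhibitor of neutrophil elastase, was at 40.2, 37.8 and 45.3 CPM in the V libraries, 44.8, 38.1 and 46.9 in WT, 48.6, 46.9 and 49.0 in SA, and 47.9, 51.4 and 54.0 in SD. The libraries of WT overlapped those of V, and those of SA and SD did not. SERPINB1 (chr6:2832332-2841959, minus strand) rose 1.25-fold in SD (log2 fold change 0.32 ± 0.08, adjusted p = 0.0228), and had a log2 fold change of 0.23 ± 0.08 in SA (edgeR, adjusted p = 0.0868). The call in SD was lost without V replicate 1 (adjusted p = 0.106), V replicate 2 (0.139), SD replicate 2 (0.0805) or SD replicate 3 (0.104), and under DESeq2 (0.0528). SERPINB6, the neighbour of both on chromosome 6, was at 85.3 ± 3.02 CPM in V (SD, n = 3) and at 90.4 to 92.4 CPM on average in the AHR lines, with log2 fold changes of 0.08 to 0.12 that did not pass. SERPINB8, an inhibitor of furin, ranged from 2.10 to 6.24 CPM over the libraries and did not pass in any comparison. It was the single tested member with an estimated count that was not a whole number.

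SLPI, a secreted inhibitor of neutrophil elastase that belongs to another protein family, was at 4.32, 3.93 and 8.42 CPM in the V libraries, 2.67, 2.90 and 4.01 in WT, 3.31, 2.31 and 1.94 in SA, and 3.70, 2.79 and 3.12 in SD. V replicate 3 stood well above all others. SLPI (chr20:45252239-45254564, minus strand) was 2.22-fold lower in SA (log2 fold change −1.15 ± 0.31, edgeR adjusted p = 0.019), with log2 fold changes of −0.80 ± 0.29 in WT (adjusted p = 0.123) and −0.79 ± 0.28 in SD (adjusted p = 0.116). Without V replicate 3 the value in SA was −0.72 and no longer passed (adjusted p = 0.277). It was likewise lost without SA replicate 2 (adjusted p = 0.0784) or SA replicate 3 (0.105).

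The comparisons between the AHR lines set lines with different residues at S489 side by side. Residue and line cannot be told apart, and AHR itself was lower in SD than in WT (log2 fold change −0.35, edgeR adjusted p = 0.00774). The WT libraries also lay above those of SA for AHR. That difference did not pass the test (log2 fold change 0.26, edgeR adjusted p = 0.135). No member changed in any of these 3 comparisons in edgeR's quasi-likelihood test. In SD against WT, 0.708% of 14828 genes changed, 0.22% of 15030 did in SD against SA and 0.0803% of 14942 in WT against SA. At an unadjusted p under 0.05, 4 of the 13 members were found in SD against WT (10.6% of all genes tested), 1 for SD against SA (8.52%) and 2 for WT against SA (7.31%). DESeq2 called 1 member in SD against WT, 1 for SD against SA and 0 for WT against SA. The exact test of edgeR called 2, 1 and 0. The member called in SD against WT and SA was PLAU under both tools, with SERPINH1 under the exact test in SD against WT. PLAU was also called in both comparisons when every gene with at least 1 count was tested, in the fit of all 12 libraries and with a replicate block, which added SERPINH1 in SD against WT. It was called in SD against WT with at least 10 counts in every library as well.

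The 4 in SD against WT were PLAU, lower in SD, and PLAUR, SERPINH1 and SERPINB1, higher in SD, and for none of them did the libraries of SD and WT overlap. SERPINI1 did not overlap either, and 16% of all genes tested did not in this comparison. For PLAU the log2 fold change was −0.24 ± 0.06 against WT (edgeR, adjusted p = 0.0548) and −0.27 ± 0.06 against SA (adjusted p = 0.0796). Without SD replicate 1, which had the highest PLAU level among the SD libraries, PLAU was called in each of these comparisons. SERPINH1 had a log2 fold change of 0.21 ± 0.06 in SD against WT (edgeR, adjusted p = 0.104), SERPINB1 of 0.25 ± 0.09 (adjusted p = 0.248) and PLAUR of 0.27 ± 0.08 (adjusted p = 0.163). In WT against SA the 2 were PLAUR, with −0.23 ± 0.08 (adjusted p = 0.501), and SERPINH1, with −0.16 ± 0.05 (adjusted p = 0.485). For SERPINE2 the 95% interval of the log2 fold change was −0.13 to 0.22 in SD against WT and −0.24 to 0.14 in SD against SA. That of SERPINI1 was far wider, from −0.38 to 1.48 in SD against WT. All these intervals are wider than the p-values of the test imply.

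**Figure D4:**
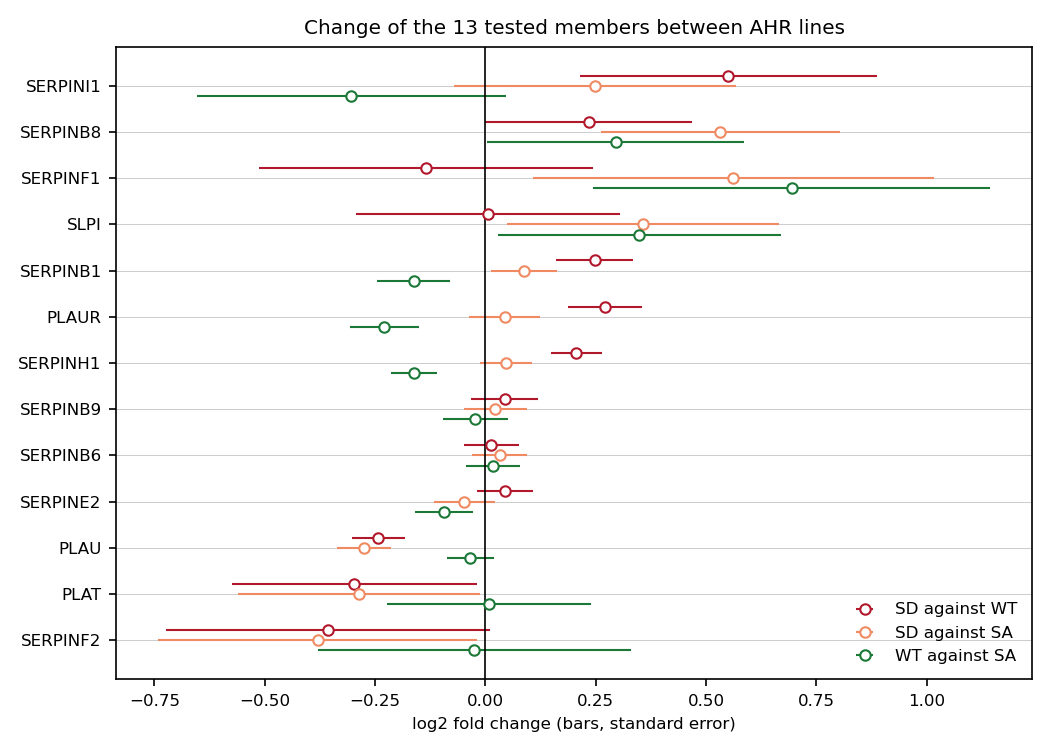
Log2 fold change of the 13 tested members in SD against WT, SD against SA and WT against SA, with bars of 1 standard error and open symbols because no adjusted p was under 0.05. PLAU lies at −0.24 and −0.27 in the comparisons of SD.

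The members that did not pass the filter were fitted in the model of every gene with at least 1 count. Between 10 and 12 of them could be fitted in each comparison and none was called (edgeR). In the edgeR quasi-likelihood test an unadjusted p under 0.05 was found for SERPINB7 in SD against V (log2 fold change −1.63, adjusted p = 0.372), for SERPINA3 in SD against WT (2.04, adjusted p = 0.486), for SERPINC1 in the comparisons of WT with SD and SA, and for SERPINB3 between WT and SA. SERPINB7, a skin and kidney serpin, was at 0.617, 1.06 and 0.842 CPM in V and at 0.200 to 0.322 CPM in SD. SERPINA3 (α1-antichymotrypsin), an acute phase protein, was at 0.624 to 0.965 CPM in SD and at 0.111 to 0.263 CPM in WT. SERPINC1 (antithrombin) had no count in WT. SERPINB3 and SERPINB4 are near-identical copies, and their counts of 14 and 5 over all libraries are uncertain. SERPINA1 (α1-antitrypsin), the serpin best known from lung disease, had 17 counts in the 12 libraries, and SERPINB2 had 1.

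Other genes of protease control were taken from lists that were also chosen with earlier results known. Their counts stand beside the 5.24%, 7.17% and 5.41% of all genes tested that changed in WT, SA and SD against V. Of 11 lysosomal cysteine cathepsins, 10 were tested. CTSL, which several serpins can inhibit, rose from 255 ± 3.37 CPM in V (SD, n = 3) to 284 ± 11.3 in WT (log2 fold change 0.15, edgeR adjusted p = 0.046), 299 ± 6.09 in SA (0.23, adjusted p = 0.00221) and 308 ± 9.90 in SD (0.28, adjusted p = 0.00125). CTSB was also higher in SA (0.23, adjusted p = 0.0051) and SD (0.36, adjusted p = 7.8e-05), and CTSC in SD (0.36, adjusted p = 0.00061). These were the cathepsins that passed, all of them higher than V.

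Of 20 plasminogen receptors, cofactors and clearance receptors, 18 were tested; 3 were lower than V and none higher in WT, 3 higher and 2 lower in SA, and 1 higher and 2 lower in SD. VLDLR and LRP1 are receptors that clear serpin-protease complexes from the cell surface. VLDLR fell from 48.9 ± 1.17 CPM in V to 36.2 ± 2.91 in WT, 33.5 ± 3.07 in SA and 37.8 ± 1.81 in SD (log2 fold change −0.43, −0.55 and −0.37, edgeR adjusted p = 0.00105, 4.8e-05 and 0.00472). LRP1 rose in SA (0.23, adjusted p = 0.0218) and SD (0.29, adjusted p = 0.00693), from 142 ± 7.91 CPM in V to 167 ± 16.2 and 174 ± 17.2. PROCR, the protein C receptor, fell from 89.3 ± 3.59 CPM in V to 65.4 ± 2.33 in WT, 66.2 ± 6.47 in SA and 68.7 ± 1.97 in SD (edgeR, adjusted p = 2e-05, 0.00018 and 0.000505). SDC1 and ENO1 were higher in SA (both 0.19, edgeR adjusted p = 0.0201 and 0.0063).

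Of 41 serine proteases, 7 or 8 were tested. C1R, a complement protease that the serpin SERPING1 inhibits, rose from 30.6 ± 2.58 CPM in V to 40.7 ± 3.04 in SA and 50.0 ± 4.33 in SD (log2 fold change 0.41 and 0.71, edgeR adjusted p = 0.00369 and 6.8e-06). C1S, its partner, rose in SD against V (0.32, adjusted p = 0.0308), WT (0.49, adjusted p = 0.00774) and SA (0.45, adjusted p = 0.0345), and C1R in SD against WT (0.47, adjusted p = 0.00626). SERPING1 itself had 2 counts in all 12 libraries. PRSS23 was lower in WT (−0.20, adjusted p = 0.00242) and SA (−0.18, adjusted p = 0.014), and CFD in WT (−0.27, adjusted p = 0.0421). Of 31 protease inhibitors outside the serpin family, 8 or 9 were tested. TFPI2 was lower in SA and SD (−0.32 and −0.31, edgeR adjusted p = 0.00596 and 0.0152), CSTB was higher in SA (0.24, adjusted p = 0.0149) and TFPI was higher in SD (0.41, adjusted p = 0.000624). AGT was at 0.73 to 0.97 CPM on average and did not pass the filter.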

How the data were processed

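RNA-seq of 4 A549 lines with 3 libraries each was analysed. The authors trimmed reads with Trimmomatic 0.39, quantified them with RSEM on GRCh38 and deposited expected counts per gene, which they did not normalize. Versions of RSEM and strand use in counting are not given in the sources used here. A second deposited table holds the authors' own fold changes and p-values for 3 pairs of lines and was not used.

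Expected counts were rounded and analysed with edgeR 4.0.16 in R 4.3.3: each pair of lines on its own 6 libraries, filterByExpr (minimum count 10, minimum total 15), TMM and the two-sided quasi-likelihood test, adjusted by Benjamini-Hochberg over all genes tested. Of the values in a library, 3.24% to 3.61% were not whole. The total per library was 7844045 to 11765576 counts. Standard errors were derived from the F statistics, and 95% intervals from these with the degrees of freedom of the 6 libraries alone. The test has more degrees of freedom because it shares information between genes, so the intervals are wider than its p-values imply. CPM used TMM factors over the 12 libraries. The code was tested on simulated data. No 2 libraries of a line were copies (2.14% or less of their counts were equal, over genes that passed filterByExpr in the 12 libraries).

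Full statistics are given for members called in at least 1 comparison and the most abundant of the rest, and for at most 5 called genes of each context list with the largest fold changes. One gene that meets the symbol rule is not reported here. The members and lists were chosen with earlier results of these data known. Alternatives were other filters, DESeq2 1.42.0 and its size factors, the exact test, 1 fit of all 12 libraries, a replicate block and leaving out each replicate. The numbers of the replicates were not taken to pair libraries across lines. The correlation of deviations between libraries of the same number was at most 0.106 and never above 0.1 in all 3 pairs of a comparison. Low values do not show that the libraries were unpaired, and the fit with a replicate block is reported below. Coordinates are the deposited ones, and 28 of the 38 members have the same start and end in GENCODE v44.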

Additional observations from a re-analysis of the deposited data

How the results depend on the processing

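The 6 counts of called members in WT, SA and SD against V and between the AHR lines were recomputed under 13 alternatives each. The count in WT against V was 3 under all of them. That in SA against V was 5 under DESeq2 and 4 to 5 with 1 replicate left out, and was otherwise 6. In SD against V, where the count was 5, it was 3 under DESeq2, 7 under the exact test, 6 under both other filters, and 2 to 6 with 1 replicate left out, the lowest without SD replicate 2. In SD against WT, where none was called, the count was 1 when every gene with at least 1 count was tested, 1 with at least 10 counts in every library, 1 under DESeq2, 2 under the exact test, 1 in the fit of all 12 libraries and 0 to 1 with 1 replicate left out. In SD against SA it was 1 with every gene of at least 1 count, 1 under DESeq2, 1 under the exact test, 1 in the fit of 12 libraries and 0 to 1 with 1 replicate left out. In both, the member gained was PLAU, with SERPINH1 under the exact test in SD against WT. WT against SA gave 0 throughout. With a replicate block, 2 members were called in SD against WT (PLAU and SERPINH1) and 1 in SD against SA (PLAU), and the block left the counts in the other 4 comparisons as they were. Over all genes the block gave 245 calls in SD against WT (105 without it), 165 in SD against SA (33 without it), 24 in WT against SA (12 without it) and 507 in WT against V (774 without it). It gave 1346 in SA against V (1069 without it) and 664 in SD against V (806 without it). Testing every gene with at least 1 count gave 251, 150 and 93 calls over all genes in the 3 comparisons between AHR lines, and the exact test 227, 95 and 36, against 105, 33 and 12. The fit of all 12 libraries gave 5 calls in WT against SA. With 1 replicate left out the calls over all genes could fall or rise. The lowest were 440 of 774 in WT against V, 620 of 1069 in SA against V and 502 of 806 in SD against V. Between the AHR lines they were 45 of 105 in SD against WT, 11 of 33 in SD against SA and 2 of 12 in WT against SA. Without SA replicate 1 the calls rose to 1194 in SA against V and to 25 in WT against SA. Without SD replicate 1 they rose to 856 in SD against V. Without SD replicate 3 they rose to 136 in SD against WT and to 56 in SD against SA. Each SD library correlated best with the WT and SA libraries of its own number, and each WT library with the SA library of its number. The converse was not examined. For SA with V this held for numbers 1 and 3, and for WT and SD with V it held for none. Such matches are a hint from the data and not from the design. Of 14 gene results, 9 were called under every alternative; of 182 values, 159 stayed past the threshold, 23 did not and 0 reversed. Those lost concerned SERPINB1, SERPINB9 and SERPINI1 in SD against V, and SERPINB9 and SLPI in SA against V; the cause was not tested. Depth limits the members below about 6 CPM: SERPINI1, SLPI, PLAT, SERPINB8, SERPINF1 and SERPINF2 had 195 to 530 counts over the 12 libraries.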
